A study of Mus musculus with 16 samples.

Results

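Fabp7, Sparcl1, Ndrg2 and Mt2 are genes of astrocytes and of radial glia, the neural stem cells from which astrocytes arise. The 4 genes were taken as every spot whose symbol in the array's annotation was Fabp7, Sparcl1, Ndrg2 or Mt2: 5 spots of 28704, with 1 spot each for Fabp7, Sparcl1 and Mt2 and 2 spots for Ndrg2. All 4 passed the filter on missing values and stand among 8654 named genes measured. They were selected on the values given below, their log2 ratios on these arrays and the differences of those between genotypes, so levels and differences are a description and carry no test.

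RNA from brains of newborn mice was hybridised to 16 arrays, with 4 arrays for each genotype: C57BL/6j wild type and, on a C57BL background, the 3 mutant lines Cx32 null, Cx43 heterozygous and Cx43 null. Astrocytes couple to each other chiefly through gap junctions of Cx43, the product of Gja1, whereas Cx32, the product of Gjb1, forms junctions in oligodendrocytes and myelin. Brain cDNA carried Cy3, and every array carried the same Cy5 reference, a pool of adult C57BL tissues from males and females that includes brain. The labels do not say whether an array holds 1 brain or a pool, nor how the alleles were made, so the spread between arrays may be technical in part. The labels of wild type replicates 3 and 4 name the dye of the reference only, and the channel label of wild type replicate 3 names replicate 2 (its title was followed). The neonatal age of the Cx32 null brains stands in the sample descriptions and not in the titles.

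Radial glia line the ventricles of the developing brain, divide to give neurons, and around birth turn to making astrocytes. Fabp7, the brain fatty acid binding protein, is a marker of radial glia and young astrocytes. Sparcl1 (hevin), which astrocytes secrete and which promotes synapse formation, and Ndrg2, an astrocyte protein of the alpha/beta hydrolase fold, both mark astrocytes as they mature, and Mt2 is a metallothionein, a small protein that binds zinc and copper.

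Levels are log2 ratios of brain over reference, with each array centred on its median. The labels give neither the log base nor which dye is the numerator. Values reached from -8.10 to 7.07, which log10 could not span, so log2 was taken; natural logs would rescale every difference. Neuronal genes lay above genes of the other reference tissues on all 16 arrays, so brain over reference is the likely direction. A ratio against the reference allows a gene to be compared between arrays, but not with another gene. In whole brain RNA, fewer cells of a type and less RNA per cell cannot be told apart.

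Arrays gave values for 21010 to 24819 spots. Correlations between arrays ran from 0.484 to 0.935 over 120 pairs, and no array repeated another's values. Wild type replicate 1 stood apart, with a median correlation of 0.576 with the other arrays, against 0.748 to 0.894 for the rest. Cx43 null replicate 1 correlated more closely with the wild type arrays (median 0.887) than with the other Cx43 null arrays (0.857). Of 11479 transcripts, 13.1% lay within the wild type range on Cx43 null replicate 1 while the other 3 Cx43 null arrays lay outside on 1 side, against 1.24% to 3.41% for the same count with any of the other null replicates. Sparcl1 and Ndrg2 were among these, so their Cx43 null differences and the list count are given with and without that array. Without it, the log2 differences of Fabp7, Mt2 and Gja1 between Cx43 null and wild type were 0.69, -1.12 and -3.81. Cx43 null results of other genes include it unless stated.

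The targeted gene Gja1 (chr10:56377300-56390419, GRCm38.p6), measured by 1 spot, was read first. Its level was 2.47, 1.13, 1.48 and 1.17 on the wild type arrays and -0.60, -1.71, -2.10 and -2.92 on the Cx43 null arrays. It was -1.09, -1.27, -1.25 and -1.86 on the Cx43 heterozygous arrays and 0.13, 0.10, -0.07 and 0.27 on the Cx32 null arrays. The mutant and wild type arrays did not overlap for this gene. Gja1 fell by 3.40 ± 0.37 (log2, SE, n = 4 arrays a group; limma, Benjamini-Hochberg adjusted p = 0.000355) in the Cx43 null, a call lost when only these 2 groups were fitted (adjusted p = 0.0764). It fell by 2.93 ± 0.37 (limma adjusted p = 0.000115) in the Cx43 heterozygous and by 1.46 ± 0.37 (limma adjusted p = 0.00986) in the Cx32 null brains. The Cx43 null and Cx43 heterozygous arrays overlapped, with Cx43 null replicate 1 above every Cx43 heterozygous array. Gja1 thus set the Cx43 lines below wild type but did not tell these genotypes apart. Where on the transcript the spot binds was not analysed here, so it may or may not lie in the mutated sequence, and Gjb1 had no spot, so the Cx32 null label had no such check.

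The sequence shown is that of Mt2, because metallothionein genes are the textbook case of transcription set by metal ions. The zinc-sensing factor Mtf1, itself measured below, binds metal response elements before their start sites. The 250 bases before the Mt2 start (chr8:94172368-94172617, plus strand, GRCm38.p6, from RefSeq), 5′ to 3′, carry in capitals the 3 matches to the element's core, searched as TGCACNC and TGCGCNC on both strands:

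Mt2: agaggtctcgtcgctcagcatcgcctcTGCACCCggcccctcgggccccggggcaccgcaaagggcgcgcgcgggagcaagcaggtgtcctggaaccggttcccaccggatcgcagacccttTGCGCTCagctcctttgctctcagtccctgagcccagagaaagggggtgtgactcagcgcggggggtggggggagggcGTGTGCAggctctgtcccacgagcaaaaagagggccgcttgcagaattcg

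The matches start 223, 128 and 50 bases before the start, the last of them on the minus strand. At least 1 match stood in 21.3% of 27025 mouse promoter windows of this length, and at least as many as in Mt2 in 1.28%. A match is a description of the letters and not a bound site.

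Fabp7 was the member that lay higher in the mutant lines. Its single spot stood far above the array median in every brain, at 4.37, 3.22, 3.14 and 4.05 on the wild type arrays. The Cx43 null arrays read 4.38, 4.17, 4.40 and 4.59, and the Cx43 heterozygous arrays 4.44, 4.28, 4.52 and 4.79. The Cx32 null arrays read 4.17, 3.67, 3.85 and 4.50. Wild type replicates 2 and 3 were the lowest of all 16 arrays, and wild type replicate 1 lay within the range of every mutant line, so each line overlapped wild type. The group mean was 3.69 ± 0.61 in wild type and stood at 4.05 ± 0.36 for Cx32 null, 4.51 ± 0.21 for Cx43 heterozygous and 4.38 ± 0.17 for Cx43 null brains (SD, n = 4 each).

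The Fabp7 difference from wild type was 0.81 ± 0.25 (log2, SE) in the Cx43 heterozygous brains, a ratio of 1.76. It was 0.69 ± 0.25 in the Cx43 null, a ratio of 1.61, and 0.35 ± 0.25 in the Cx32 null, a ratio of 1.28. Its size turned on wild type replicates 1 and 3: leaving them out in turn moved the Cx32 null difference to 0.58 and 0.17. Under quantile normalization it was 0.80. Fabp7 lies at chr10:57784923-57788450 (GRCm38.p6), 1.39 Mb from Gja1, on the chromosome that carries the Cx43 mutation. Of its family of fatty acid and retinoid binding proteins, Rbp2 and Crabp2 were the other genes measured, and neither was called in any line.

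**Figure D1:**
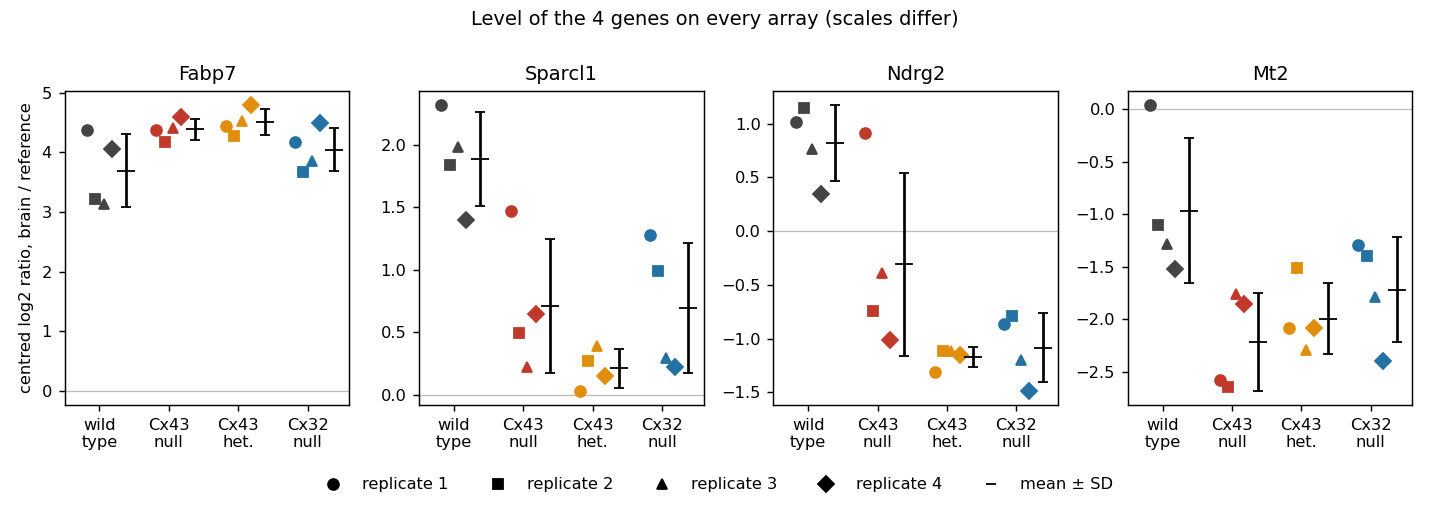
Centred log2 ratio of brain over reference (vertical axes, scales differ) for each of the 4 genes on the 16 arrays, by genotype; symbols give the replicate number, and the bar beside each group is the mean ± SD of 4 arrays. Sparcl1 and Ndrg2 stand at 1.47 and 0.91 on Cx43 null replicate 1, apart from the other Cx43 null arrays.

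Sparcl1 was lower in each mutant line. The wild type arrays read 2.32, 1.84, 1.99 and 1.40, and the Cx43 heterozygous arrays 0.03, 0.27, 0.39 and 0.15. The Cx32 null arrays read 1.28, 0.99, 0.29 and 0.23. No array of either of these lines reached the lowest wild type array. The Cx43 null arrays read 1.47, 0.49, 0.23 and 0.64, and of these replicate 1 lay above wild type replicate 4. The means were 1.89 ± 0.38 in wild type, 0.71 ± 0.54 in Cx43 null, 0.70 ± 0.52 in Cx32 null and 0.21 ± 0.15 in Cx43 heterozygous brains (SD, n = 4 each).

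The Sparcl1 level was thus lower by a log2 difference of -1.67 ± 0.28 (SE), or 3.19-fold, in Cx43 heterozygous brains. It was lower by -1.18 ± 0.28, or 2.26-fold, in the Cx43 null, and without Cx43 null replicate 1 the difference was -1.43. In the Cx32 null it was -1.19 ± 0.28, or 2.28-fold. Sparcl1 lies at chr5:104079108-104114088 (GRCm38.p6).

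Sparcl1 belongs to the SPARC family of secreted matrix proteins, of which 5 other genes were measured. Sparc, the closest relative, made by glia, vessels and meninges, fell in all 3 lines, with log2 differences of -1.10 ± 0.22 in Cx43 null, -1.04 ± 0.22 in Cx43 heterozygous and -1.15 ± 0.22 in Cx32 null brains (SE; limma adjusted p = 0.0109, 0.00276 and 0.00223). Fstl1, a secreted family member that binds BMP and activin ligands, fell by 1.49 ± 0.24, 1.59 ± 0.22 and 1.63 ± 0.22 in the same order (limma adjusted p = 0.00532, 0.000220 and 0.000402). For both genes, every array of each line lay below every wild type array. Spock1, Spock2 and Smoc1 were called in no line, and their log2 differences ran from -0.74 to 0.26.

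Ndrg2 was lower in each mutant line, by an amount that depended on the spot. Its level, averaged over 2 spots, was 0.82 ± 0.35 in wild type, -0.31 ± 0.85 in Cx43 null, -1.17 ± 0.09 in Cx43 heterozygous and -1.08 ± 0.32 in Cx32 null brains (SD, n = 4 each). The difference from wild type was -1.99 ± 0.31 (SE), or 3.97-fold lower, in the Cx43 heterozygous. It was -1.90 ± 0.31, or 3.74-fold lower, in the Cx32 null, and -1.12 ± 0.31, or 2.18-fold lower, in the Cx43 null. Without Cx43 null replicate 1, the difference in the Cx43 null was -1.53.

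The 2 Ndrg2 spots differed in how far they moved. Spot 1 read 0.23, 0.21, -0.19 and -0.43 on the wild type arrays, -1.36, -1.19, -1.38 and -1.12 on the Cx43 heterozygous arrays and -0.90, -1.004, -1.36 and -1.75 on the Cx32 null arrays. Spot 2 read 1.81, 2.08, 1.73 and 1.12 on the wild type arrays, -1.25, -1.04, -0.84 and -1.18 on the Cx43 heterozygous arrays and -0.83, -0.58, -1.03 and -1.22 on the Cx32 null arrays. On both spots these lines lay wholly below wild type, but the Cx43 heterozygous difference was -1.21 on spot 1 and -2.76 on spot 2, and the Cx32 null difference was -1.21 and -2.60. On the Cx43 null arrays, spot 1 read -0.08, -0.86, -0.45 and -1.19 and spot 2 read 1.90, -0.62, -0.32 and -0.82. Cx43 null replicate 1 lay within the wild type range on both spots, and the Cx43 null difference was -0.60 on spot 1 and -1.65 on spot 2.

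**Figure D2:**
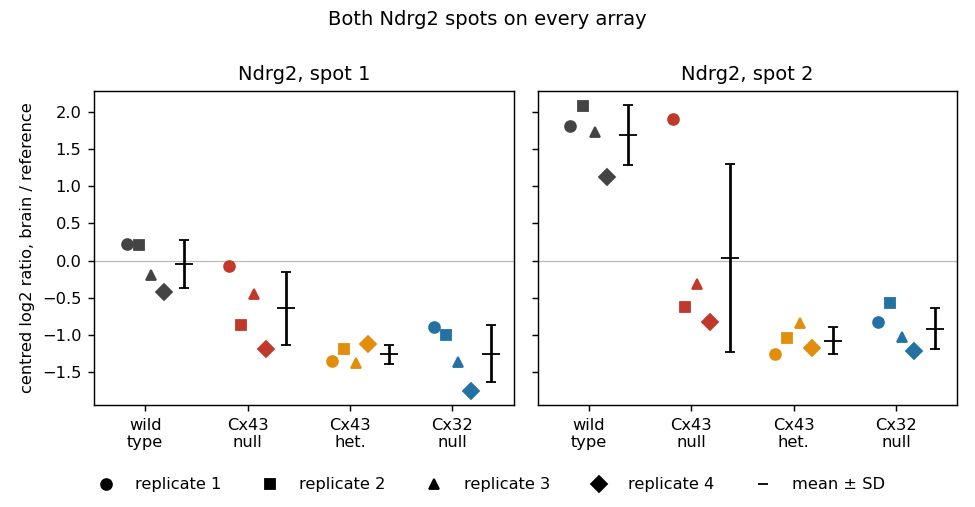
Centred log2 ratio (vertical axis) of the 2 Ndrg2 spots on the 16 arrays by genotype, with symbols for replicate numbers and bars for mean ± SD of 4 arrays. Wild type averaged -0.05 on spot 1 and 1.68 on spot 2, while the Cx43 heterozygous and Cx32 null groups averaged between -1.26 and -0.91 on either spot.

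Ndrg2 lies at chr14:51905271-51914004 (GRCm38.p6). The other 3 genes of the NDRG family were all measured, and none was called in any line. Ndrg1, a stress-induced member of oligodendrocytes and other cells, differed by 0.53 ± 0.20, 0.09 ± 0.20 and 0.29 ± 0.20 in Cx43 null, Cx43 heterozygous and Cx32 null brains (log2, SE). Ndrg3 differed by -0.37, -0.35 and -0.27 and Ndrg4, a largely neuronal member, by -0.28, -0.33 and -0.35. The Ndrg4 spots did not move one way: in the Cx32 null, spots 1 and 2 differed from wild type by -0.98 and 0.61. The third spot lies in a block of spots that was out of step with the other arrays on some arrays, and with such blocks set to missing Ndrg4 differed by -0.18, -0.23 and -0.19 in the 3 lines, again with no call.

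Mt2 lay below the array median in nearly every brain and lower in the mutant lines. The wild type arrays read 0.04, -1.10, -1.28 and -1.52, with replicate 1 far above the others. The Cx43 null arrays read -2.58, -2.65, -1.76 and -1.86, all below wild type. The Cx43 heterozygous arrays read -2.08, -1.51, -2.30 and -2.09 and the Cx32 null arrays -1.29, -1.40, -1.79 and -2.40, and these 2 lines overlapped wild type. The means were -0.97 ± 0.69 for wild type, -2.21 ± 0.47 for Cx43 null, -1.99 ± 0.34 for Cx43 heterozygous and -1.72 ± 0.50 for Cx32 null brains (SD, n = 4 each).

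The Mt2 difference from wild type was -1.25 ± 0.32 (log2, SE), or 2.37-fold lower, in the Cx43 null. It was -1.02 ± 0.32, or 2.04-fold lower, in the Cx43 heterozygous and -0.75 ± 0.32, or 1.68-fold lower, in the Cx32 null. Without wild type replicate 1 the 3 differences were -0.91, -0.69 and -0.42. Under cyclic loess normalization the Cx43 heterozygous and Cx32 null differences were -0.60 and -0.41.

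Mt1, the twin metallothionein gene which lies 5.32 kb beyond the end of Mt2 on chromosome 8 (chr8:94178883-94180327 against chr8:94172618-94173567, GRCm38.p6), did not pass the test in any line. Averaged over 3 spots, Mt1 differed from wild type by -0.10 ± 0.22 in Cx43 null, -0.08 ± 0.22 in Cx43 heterozygous and 0.10 ± 0.22 in Cx32 null brains (log2, SE; limma adjusted p = 0.793, 0.801 and 0.772). Its spots disagreed: in the Cx32 null they differed by -0.60, 0.57 and 0.31. The sequences of the spots were not analysed here, so it is unknown how far Mt1 and Mt2 spots bind each other's cDNA.

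Of the 15 zinc and metallothionein genes measured beside Mt2, 2 fell in the Cx43 null, 2 fell and 2 rose in the Cx43 heterozygous, and 3 fell and 3 rose in the Cx32 null. Over all transcripts, 6.43% were called lower and 4.37% higher in the Cx43 null, 17.5% and 13.5% in the Cx43 heterozygous, and 14.3% and 13.1% in the Cx32 null, so counts this small do not set these genes apart. Mtf1, the zinc sensor that drives metallothionein transcription, fell by 0.84 ± 0.21 in Cx43 null and by 0.67 ± 0.21 in Cx32 null brains (limma adjusted p = 0.0238 and 0.0273), and differed by -0.47 ± 0.21 in Cx43 heterozygous brains (limma adjusted p = 0.0966). Slc30a9 fell in all 3 lines, by 0.62, 0.81 and 0.63 in Cx43 null, Cx43 heterozygous and Cx32 null brains (limma adjusted p = 0.0456, 0.00485 and 0.0214). Slc30a3, the carrier that loads zinc into synaptic vesicles, fell by 1.39 in Cx43 heterozygous and by 1.04 in Cx32 null brains (limma adjusted p = 0.000963 and 0.00695). Slc39a13, a zinc importer, rose by 0.83 and 0.82 in the same 2 lines (limma adjusted p = 0.0112 and 0.0147). Slc30a1, the zinc exporter of the plasma membrane, rose by 0.64 in the Cx43 heterozygous, and the importers Slc39a9 and Slc39a14 rose by 0.77 and 0.58 in the Cx32 null (limma adjusted p = 0.0402, 0.0282 and 0.0243). The remaining 8, Mt1 included, were called in no line.

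Counted over the 4 genes, 1 of 4 lay wholly below wild type in the Cx43 null (Mt2), 2 of 4 in the Cx43 heterozygous and 2 of 4 in the Cx32 null (Sparcl1 and Ndrg2 in both). Over all 14292 transcripts the share was 6.26%, 17.4% and 14.6%. The choice of the genes used these contrasts, so nothing is read from the counts. All 3 comparisons share the same 4 wild type arrays, and a high or low wild type array therefore moves a gene the same way in each.

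Between the mutant lines, the levels were ordered as follows. For Fabp7 the order from the top was Cx43 heterozygous, Cx43 null, Cx32 null and wild type. Neighbouring lines differed by 0.12 and 0.34 in log2, and the arrays of every pair of lines overlapped. For Sparcl1, Cx43 null and Cx32 null means differed by 0.01 (95% interval -0.57 to 0.59), and the Cx43 heterozygous mean lay 0.49 below the Cx32 null (interval of the difference -1.07 to 0.10). For Mt2, the arrays of every pair of lines overlapped, the widest gap between means being -0.49 (95% interval -1.18 to 0.19) for Cx43 null minus Cx32 null.

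For Ndrg2, the mean of the Cx43 null lay above those of the other mutant lines, in part through its replicate 1. Cx43 null minus Cx43 heterozygous was 0.86 (95% interval 0.21 to 1.52), with every Cx43 null array above every Cx43 heterozygous array, as for 7.11% of all transcripts. That separation is of the 2 spots averaged. On spot 1 the arrays overlapped, with Cx43 null replicate 4 at -1.19 and Cx43 heterozygous replicate 4 at -1.12. On spot 2 the lowest Cx43 null array (-0.824) lay just above the highest Cx43 heterozygous array (-0.844). Cx43 null minus Cx32 null was 0.78 (0.12 to 1.43), with overlapping arrays. Without Cx43 null replicate 1, these differences were 0.46 and 0.37. Cx43 heterozygous and Cx32 null levels differed by -0.09 (-0.74 to 0.57). The intervals describe the spread for chosen genes, are not adjusted for the number of pairs and test nothing.

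Sparcl1 and Ndrg2 were high and low on much the same arrays. Over the 16 arrays the Pearson correlation of Sparcl1 with Ndrg2 was 0.893, and it was 0.754 after each group's mean was removed. Without wild type replicate 1 and Cx43 null replicate 1 these were 0.868 and 0.540. The likeness was not particular to this pair. Among 8604 named genes, Ndrg2 ranked 119 for Sparcl1 and Sparcl1 ranked 167 for Ndrg2 over the 16 arrays. After removal of group means the ranks were 120 and 108. Mt2 correlated with Sparcl1 at 0.675 and with Ndrg2 at 0.501. Fabp7 correlated with Mt2, Ndrg2 and Sparcl1 at -0.384, -0.514 and -0.562. After each group's mean was removed, these 3 values were 0.173, -0.201 and -0.04, and Mt2 correlated with Sparcl1 at 0.355 and with Ndrg2 at 0.124. Without wild type replicate 1 and Cx43 null replicate 1, the 3 values of Fabp7 after removal of group means were -0.372, -0.639 and -0.408. Those of Mt2 with Sparcl1 and Ndrg2 were then 0.53 and 0.599. The values after removal of group means thus depended on these arrays, whose omission was chosen after the data were seen. Whether Fabp7 ran against the other genes within groups is therefore not settled. These points share arrays, reference and the group differences that chose the genes, so the values are descriptions only.

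**Figure D3:**
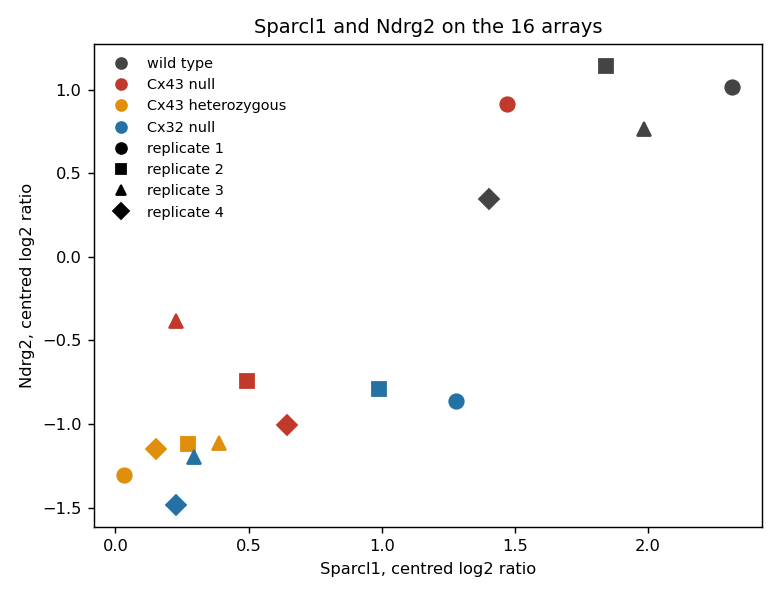
Sparcl1 (horizontal) against Ndrg2 (vertical), both as centred log2 ratios, with 1 point for each of the 16 arrays, coloured by genotype and shaped by replicate number. Cx43 null replicate 1 lies with the 4 wild type arrays at the upper right, and the other 11 arrays of the mutant lines lie below 0 for Ndrg2.

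Of 8604 named genes ranked by correlation with each member over the arrays, the genes most like Ndrg2 were Atp1b1 (0.983), Aldoa (0.979), Slc38a3 (0.978), Fermt2 (0.966) and Gstm1 (0.965). Atp1b1 is a beta subunit of the sodium pump, Aldoa a glycolytic enzyme, and Slc38a3 a glutamine carrier of astrocytes. Slc38a3, Atp1b1 and Aldoa were again the 3 nearest once group means were removed, at 0.957, 0.948 and 0.944. The genes most like Sparcl1 were 9530068E07Rik (0.964), Psmd4 (0.961), Capn12 (0.958), Psmd8 (0.954) and Skiv2l (0.954), where Psmd4 and Psmd8 are proteasome subunits. After group means were removed, the 3 nearest to Sparcl1 were Lrpap1 (0.904), 9530068E07Rik (0.899) and Psmd8 (0.880). None of the 10 genes nearest to Ndrg2 or Sparcl1 over the arrays is in the astrocyte list used here.

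The genes most like Fabp7 were Abcc1 (0.854), 1700030K09Rik (0.805), Gmppb (0.801), Vim (0.793) and Odf2l (0.789). Vim, the intermediate filament protein of radial glia, was the only one of them in the astrocyte and radial glia list. Vim itself differed from wild type by 0.32 ± 0.34, 0.58 ± 0.34 and 0.15 ± 0.34 in Cx43 null, Cx43 heterozygous and Cx32 null brains and was not called (log2, SE; limma adjusted p = 0.542, 0.202 and 0.771). The genes most like Mt2 were Entr1 (0.909), Tomm5 (0.898), Ppp1r14c (0.896), Dkk3 (0.885) and Prkab1 (0.882). With the 2 arrays that stood apart left out, these 5 fell to between 0.692 and 0.822. After group means were removed, none of these neighbours of Fabp7 or Mt2 was among the 3 nearest: those of Fabp7 were Mov10l1, Itfg1 and Dgkd, and those of Mt2 were Mrps10, Smtn and Rdh14.

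The other genes of the cell type were read from a list of 72 astrocyte and radial glia genes without the 4 members, of which 36 were measured. Gfap, Aqp4, Aldh1l1, Slc1a2, S100b, Sox9 and Apoe were among those without a value, so the label rests on the other markers. In the Cx43 null, 4 of 36 fell and 0 rose, where over all transcripts 6.43% were called lower and 4.37% higher. At an unadjusted limma p under 0.05, 11 of 36 were lower and 2 higher in that line. The share of all transcripts at that looser threshold is not given, so no excess is read from these counts. In the Cx43 heterozygous, 13 fell and 2 rose, against 17.5% and 13.5% of all transcripts. In the Cx32 null, 12 fell and 1 rose, against 14.3% and 13.1%. The list's median log2 difference was -0.23, -0.43 and -0.34 in the 3 lines, and that of all transcripts 0.01, -0.02 and -0.03. Gja1, the gene mutated in the Cx43 lines, is counted among the genes that fell in each line. No test of the list as a whole was made.

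These counts changed with single arrays. The share of all transcripts called in each of these fits is not given. A change over the whole array therefore cannot be told from a change in the list. In the Cx43 null, 8 genes were called when Cx43 null replicate 1 was dropped, 1 when Cx43 null replicate 3 was dropped and 7 when wild type replicate 4 was dropped. The count was 2 when wild type replicate 2, Cx43 null replicate 2 or 4, or any array of the other lines was left out. With only the 2 groups fitted limma called 0, with 8 at an unadjusted p under 0.05. In that fit Gja1 itself, at -3.40, was not called (limma adjusted p = 0.0764). In the Cx32 null, the count of 13 became 8, 8 and 6 when Cx32 null replicates 2, 3 and 4 were dropped in turn.

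The genes called lower in all 3 lines were Gja1, Daam2, Plpp3 and Scg3, or 4 of 36 where the share of all transcripts was 5.46%. Gja1 is the gene mutated in the Cx43 lines, so its fall there says nothing about the cell type, and no excess is read from this count. In no line were 19 of the 36 called. Daam2, a formin that acts in Wnt signalling in glia, fell by 0.97 ± 0.21 in Cx43 null, 1.90 ± 0.21 in Cx43 heterozygous and 1.51 ± 0.21 in Cx32 null brains (log2, SE; limma adjusted p = 0.0156, 5.55e-05 and 0.000402). In the Cx43 null, the Daam2 call was lost without Cx43 null replicate 3 (limma adjusted p = 0.0630). Plpp3, a phospholipid phosphatase, fell by 0.89, 0.82 and 0.90 (limma adjusted p = 0.0472, 0.0332 and 0.0247). Scg3, a granin of secretory granules, fell by 0.71, 0.82 and 0.70 (limma adjusted p = 0.0486, 0.0111 and 0.0284). With values required on 4 of 4 arrays in each group, the Scg3 differences were -0.37, -0.46 and -0.21 and no line was called (limma adjusted p = 0.267, 0.132 and 0.505). Under quantile normalization they were -0.30 in Cx43 null and -0.29 in Cx32 null brains (limma adjusted p = 0.220 and 0.198). The Plpp3 and Scg3 calls in the Cx43 null lay at the threshold and were lost when most arrays were left out in turn. Without wild type replicate 1, the Plpp3 differences were -0.50, -0.43 and -0.51 in Cx43 null, Cx43 heterozygous and Cx32 null brains (limma adjusted p = 0.0700 and 0.0583 in the first 2), and the Scg3 difference in the Cx32 null was -0.49 (limma adjusted p = 0.0761).

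Nfib, a transcription factor that drives gliogenesis, fell by 1.26 ± 0.22 in Cx43 heterozygous and 1.04 ± 0.22 in Cx32 null brains (limma adjusted p = 0.000911 and 0.00418). Id3, an inhibitor of basic helix-loop-helix factors, fell by 1.46 ± 0.41 and 1.23 ± 0.41 (limma adjusted p = 0.0134 and 0.0345), and its Cx32 null difference was -0.66 without wild type replicate 1 (limma adjusted p = 0.0759). F3, tissue factor, fell by 1.16 ± 0.31 and 1.46 ± 0.31 in the same lines (limma adjusted p = 0.0111 and 0.00441). Without wild type replicate 1, the Cx43 heterozygous differences of Id3 and F3 were -0.89 and -0.73, both still called. The Id3 call there was lost with only the 2 groups fitted (limma adjusted p = 0.0538), and the F3 call without both wild type replicate 1 and Cx43 null replicate 1 (0.0520). Ednrb, the endothelin B receptor of glia and vessels, fell by 2.27 ± 0.26 in the Cx43 heterozygous (limma adjusted p = 7.03e-05) and differed by -0.22 and -0.17 in the Cx43 null and Cx32 null, where the sign turned under quantile normalization.

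Genes of the list that rose were few. Dio2, the deiodinase with which glia make active thyroid hormone, rose by 0.85 ± 0.23 in Cx43 heterozygous and by 0.85 ± 0.21 in Cx32 null brains (limma adjusted p = 0.0112 and 0.00903), and differed by 0.63 ± 0.21 in the Cx43 null (limma adjusted p = 0.0604). Tnc, tenascin C, a matrix protein of radial glia, rose by 0.74 ± 0.27 in the Cx43 heterozygous (limma adjusted p = 0.0424), a call lost without wild type replicate 3 (limma adjusted p = 0.113) among others. Of the classical astrocyte genes, Slc1a3, the glutamate carrier GLAST, differed by -0.81 ± 0.42, -0.94 ± 0.42 and -0.83 ± 0.42 and passed in no line (limma adjusted p = 0.196, 0.0959 and 0.147). Its wild type arrays ran from 1.10 to 4.09. Aldoc fell by 0.79 in the Cx43 heterozygous and 0.84 in the Cx32 null (limma adjusted p = 0.0167 and 0.0149). Glul fell by 0.53 in the Cx43 heterozygous (limma adjusted p = 0.0326). Hepacam and Cspg5, also of the list, lay higher in the lines and were called in none. Hepacam averaged 0.16 ± 1.52 (SD) in wild type and 0.55, 1.16 and 0.93 in Cx43 null, Cx43 heterozygous and Cx32 null brains. Cspg5 averaged 1.10 ± 1.80 in wild type and 2.00, 1.63 and 1.78 in the same order. Of the 36 genes, 11, 10 and 10 lay above wild type in these lines and 25, 26 and 26 below.

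**Figure D4:**
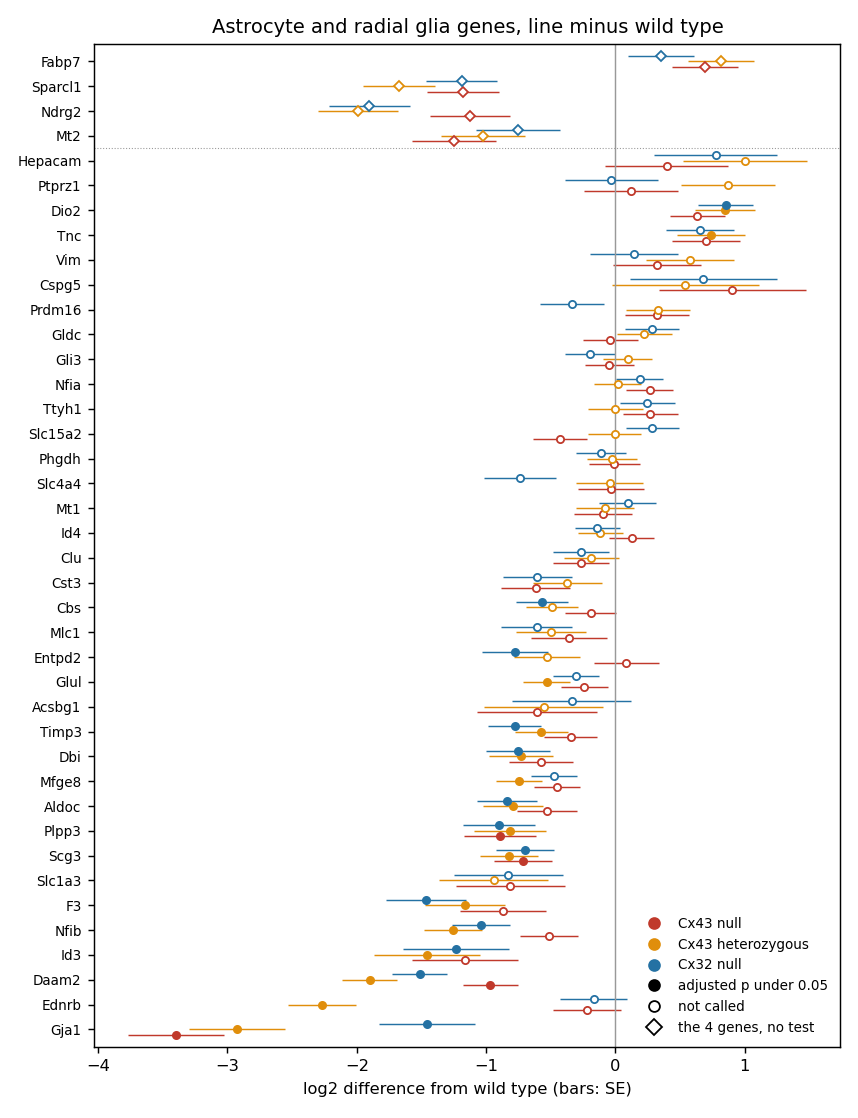
Log2 difference of each mutant line from wild type (horizontal axis, bars are SE) for the 4 genes (diamonds, top, not tested) and the 36 other measured astrocyte and radial glia genes (circles, filled where the limma adjusted p was under 0.05), coloured by line. Gja1 at the bottom spans -3.40 to -1.46, and most of the other genes lie between -1 and 1.

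Markers of other cell types moved in the same comparisons. Of 9 measured meninges and choroid plexus genes of 17 listed, Ptgds, Dcn and Aqp1 fell in all 3 lines, while Igf2 rose in the Cx43 heterozygous (0.96, limma adjusted p = 0.00959). Of 9 measured microglia genes of 17, C1qa, C1qb and Laptm5 fell in all 3 lines. Itgam rose in the Cx43 heterozygous and Cx32 null, and Ctss and Tyrobp rose in the Cx43 heterozygous. Of 5 measured red blood cell genes of 10, 3 fell in the Cx43 heterozygous and 2 in the Cx32 null. Over all transcripts, 5.46% were called lower in all 3 lines. In the Cx43 heterozygous 17.5% were called lower and 13.5% higher, and in the Cx32 null 14.3% and 13.1%. With so few genes measured, nothing is read from these counts. The median level over the measured red blood cell genes ran from -2.12 to -0.73 on wild type, -2.90 to -1.18 on Cx43 null, -2.61 to -2.01 on Cx43 heterozygous and -2.08 to -1.62 on Cx32 null arrays. For the meninges and choroid plexus genes it ran from -0.62 to 0.23, -0.66 to -0.41, -0.69 to -0.56 and -0.57 to -0.31 in the same order, and for the microglia genes from -1.09 to -0.79, -1.47 to -0.85, -1.27 to -0.90 and -1.75 to -0.81. The part of these cells in the levels of the 4 genes was not tested.

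The median of the 36 astrocyte genes ran from 0.18 to 0.79 on wild type, 0.09 to 0.36 on Cx43 null, -0.09 to 0.13 on Cx43 heterozygous and -0.11 to 0.09 on Cx32 null arrays. The wild type range lay above those of the Cx43 heterozygous and Cx32 null and overlapped that of the Cx43 null. Neuronal genes, 14 measured of 28, had medians of 1.84 to 2.32 on wild type, 1.82 to 2.43 on Cx43 null, 1.53 to 2.12 on Cx43 heterozygous and 1.81 to 2.19 on Cx32 null arrays. In the Cx43 null 0 fell and 1 rose, in the Cx43 heterozygous 3 and 2, and in the Cx32 null 2 and 2. The shares of all transcripts are given above. Syn1 and Syt1 fell in the Cx43 heterozygous and Cx32 null, and Uchl1 in the Cx43 heterozygous. L1cam rose in all 3 lines, Nefm in the Cx43 heterozygous and Ncam1 in the Cx32 null.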

How the data were processed

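Each of the 16 samples is a 2-colour cDNA array of 28704 spots. The deposited values are log ratios, taken as log2 (the labels state neither log base, numerator nor normalization); the scanner and its background correction are not given in the sources used here. Genes were named through the platform's annotation, updated by gene identifier: 18511 spots had 1 symbol (244 of them as the platform gives it), 937 several and 9256 none. Arrays were centred on their median, spots with at least 3 of 4 values in every group were kept (19951), and spots of 1 gene were averaged, giving 14292 transcripts. limma 3.58.1 (R 4.3.3) fitted 4 group means to all arrays; genes are called at a 2-sided Benjamini-Hochberg adjusted p under 0.05 over all transcripts, and ± is as stated. The procedure was tested on simulated data. The number of arrays limits precision.

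The 4 genes and the gene lists were chosen with earlier results of these data known. Named are Gja1, the 5 largest called astrocyte list genes each way, called family members, all metallothionein and NDRG genes, and the 5 genes most correlated with each of the 4. Other genes named (Slc1a3, Aldoc, Glul, Vim, the cell type markers) were picked as classical markers. Hepacam and Cspg5 were picked as list genes that lay higher in the lines. Alternatives covered scaling, the missing-value filter, each array left out, 2-group fits, the replicate block, single spots and spots of misplaced blocks set to missing.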

Additional observations from a re-analysis of the deposited data

Results flagged for a closer look

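For 2 genes of the astrocyte and radial glia list, the Cx43 null and the Cx43 heterozygous differed in their distance from wild type, by a test of that difference. Ednrb stood 2.05 ± 0.24 higher (log2, SE) in the Cx43 null than in the Cx43 heterozygous (limma adjusted p = 0.000520), and Cx43 heterozygous minus Cx32 null was -2.10 (limma adjusted p = 0.000262). Daam2 stood 0.93 ± 0.21 higher in the Cx43 null than in the Cx43 heterozygous (limma adjusted p = 0.0370). Over all transcripts, 1.46% were called between these 2 lines. Both genes' values include Cx43 null replicate 1. Without that array the Daam2 difference of the Cx43 null from wild type was -1.12, against -0.97 with it. The Daam2 difference from the Cx43 heterozygous is not given without it.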

How the results depend on the processing

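The direction of each difference of the 4 genes from wild type held under every alternative run. The Sparcl1 difference of the Cx43 heterozygous moved by more than 1 SD under quantile normalization (-1.37). The Ndrg2 differences of the Cx43 heterozygous and Cx32 null moved by more than 1 SD with the choice of spot. With 1 spot for each gene, or spot 2 alone, they were -2.76 in the Cx43 heterozygous and -2.60 in the Cx32 null. With spot 1 alone they were -1.21 in both. The single-spot fits and the fit without both arrays that stood apart were chosen after seeing the data. The Gja1 difference of -3.40 in the Cx43 null lost its call with only the 2 groups fitted (limma adjusted p = 0.0764, range over alternatives 5.09e-06 to 0.0764). With each array left out in turn, the count of list genes called ran from 1 to 8 in the Cx43 null, 10 to 17 in the Cx43 heterozygous and 6 to 14 in the Cx32 null. With only the 2 groups fitted the counts were 0, 9 and 7. With 4 of 4 values required the Cx43 heterozygous count was 9. Without both wild type replicate 1 and Cx43 null replicate 1 the Cx43 null count was 8. The share of all transcripts called in each of these fits is not given. The Ednrb difference changed sign under quantile normalization in Cx43 null (0.071) and Cx32 null (0.12), and under cyclic loess in Cx32 null (0.020). Causes were not tested beyond the fewer samples or spots fitted. Over all spots, same-numbered arrays did not deviate together (24 pairs, correlations -0.246 to 0.206, 4 above 0.1). Whether the numbers pair samples for single genes was not tested. With the replicate block the SE of the Cx43 heterozygous difference was 0.20 for Fabp7, 0.24 for Sparcl1, 0.27 for Ndrg2 and 0.33 for Mt2. Without it these were 0.25, 0.28, 0.31 and 0.32. The Cx43 null count with the block was 4, as without it. Depth per spot is unknown.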
